A study of Mus musculus with 60 samples.

Results

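The 8 transcription factor genes described here are Nr2f1, Nr2f2, Bhlhe40, Bhlhe41, Sox9, Glis1, Foxo1 and Foxo3. They were chosen by name, as factors linked to dormancy or quiescence or as close relatives of such factors. The choice was made with earlier results of these data known. All 8 were found among the 47729 mouse genes of the count table. Dormant tumor cells are cells that have spread to a distant organ, stay alive and do not divide. NR2F1 and NR2F2 are orphan nuclear receptors, and NR2F1 is known as a driver of dormancy in disseminated tumor cells, where it acts with SOX9 and retinoic acid receptors. BHLHE40 and BHLHE41 (also called DEC1 and DEC2) are repressors of the circadian clock, and BHLHE41 has been linked to dormancy downstream of TGF-beta2 and p38. FOXO1 and FOXO3 are forkhead factors that are held in the cytoplasm by AKT and, when nuclear, switch on cell cycle inhibitors and stress genes. GLIS1 is a zinc finger factor related to the GLI proteins of Hedgehog signaling.

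The cells were sorted as PyMT-Bo1, a mouse mammary tumor line of C57BL6 background that carries luciferase, mApple, eGFP and the surface marker Thy1.1. Cells were stained with the membrane dye Vybrant DiD and injected into the heart of wild-type C57BL6 mice 8 to 10 weeks old, and were taken 11 days later from the femur and tibia of 5 mice, pooled. Cells that had kept the dye (DiD+, "High" in the labels, 32 cells) and cells that had lost it (DiD-, "Low", 28 cells) were sorted singly and sequenced with a full-length method, so each deposited sample is 1 cell. The study describes 48 cells sorted per group, and the deposited table holds 60 cells in all. Because the labels do not tie cells to mice, a group counts as 1 sample, no test between groups was run, and the differences below have no replicate check.

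The depth, as the total of mouse gene counts in a cell, was 2276789 to 7794219 for DiD+ and 2624405 to 6199108 for DiD-. A gene without a count in a group could hold up to 0.0205 CPM (counts scaled to a common library size) in DiD+ or 0.0251 CPM in DiD- cells, the level of 3 counts over the group. Of 5 epithelial markers, Krt8 and Krt18 had counts in both groups, Krt19 and Epcam were at 0 in both, and Cdh1 was at 0 in DiD- cells. Their summed level per cell had a median of 2201 CPM in DiD+ against 4627 CPM in DiD- cells. At least 7 of 13 macrophage or monocyte markers were present, at 10 counts or more, in 6 DiD+ wells (cells 19, 21, 24, 30, 37 and 88, by label number) and 1 DiD- well (cell 84), called macrophage wells here for their markers alone. These wells held 11 to 13 of the 13 markers. The study's sort selected against CD45, a surface protein of blood cells, macrophages included. Where the marker RNA in these wells came from was not tested. The summed level of these 13 markers ranged from 0 to 19948 CPM in DiD+ and from 0 to 1754 CPM in DiD- cells, with no marker at 0 in either group. Other host markers were found too. Of 7 erythroid (red blood cell) markers, cell 19 held 5, cell 30 all 7, and cells 37 and 84 held 4 each. Cell 84 also held 5 of 9 neutrophil markers. DiD- cell 86, not a macrophage well, held 5 erythroid markers and is left out with the macrophage wells where host wells are omitted. The highest summed erythroid level was 127681 CPM, in a DiD+ cell, and the DiD- maximum was 34018 CPM. The source of this RNA was not tested either. S phase genes were lower in DiD+ cells for 41 of 42 genes measured and G2/M genes for 48 of 52. The label numbers form 2 runs, 17 to 46 (18 DiD+ and 12 DiD- cells) and 63 to 92 (14 and 16 cells). What the runs stand for is not given in the sources used here, so each ratio is also given within each run.

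Between the groups, 4 of the 8 factors (Nr2f1, Bhlhe41, Glis1 and Foxo1) had a log2 ratio of DiD+ over DiD- of 1 or more, and none had a ratio of -1 or less. Among all 12432 genes that reached 1 CPM in either group, 12.1% were higher by this measure and 4.86% were lower. The study had already named Nr2f1 and Bhlhe41 as differentially expressed in DiD+ cells of these data, so the 4 factors are not an independent count. The ratio was taken between the CPM of the summed counts of each group after adding 1 CPM to both. The median over the 8 factors was 1.01, and the median of all genes was 0.04, with quartiles at -0.29 and 0.46. Of the 8 factors, 6 had a ratio above 0, as had 53.2% of all genes. All 8 reached 1 CPM in a group, but Bhlhe41 and Glis1 reached it only through the DiD+ cells, so these 2 could enter the count only as higher. When each cell was scaled by its ERCC spike-ins (RNAs added in a fixed amount) the median of all genes moved to -0.34, and only Bhlhe41 (1.36) and Glis1 (2.80) stayed at 1 or more. Under that scaling Nr2f1 had a ratio of 0.75 and Foxo1 of 0.86.

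**Figure D1:**
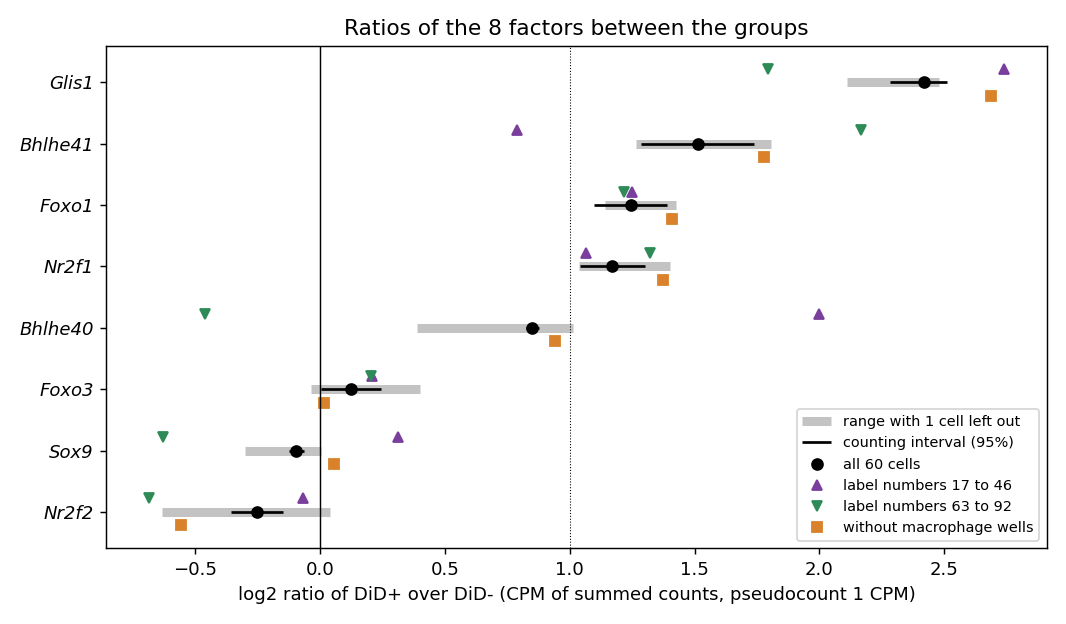
Log2 ratio of DiD+ over DiD- (x axis, CPM of summed counts with 1 CPM added) for each of the 8 factors. Black points are all 60 cells with the 95% counting interval, grey bars are the range when 1 cell is left out, and colored marks are the 2 label runs and the cells without macrophage markers. Nr2f1 and Foxo1 stay at 1.06 or more in both runs, Bhlhe40 goes from 2.0 to -0.46, and the value of Glis1 is set by the added 1 CPM because DiD- cells had no count.

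Nr2f1 (ENSMUSG00000069171, GRCm38 chromosome 13, 78188973 to 78199757, minus strand) was found in more DiD+ than DiD- cells and at a higher level. Per cell, its lowest, median and highest levels were 0, 14.96 and 82.7 CPM in DiD+ cells and 0, 1.94 and 58.2 CPM in DiD- cells. The groups overlapped over nearly the whole range, and the difference lay in the middle of the distribution and in the cells at 0. A count was present in 29 of 32 DiD+ cells (90.6%, exact binomial interval 74.98% to 98.0%) and in 17 of 28 DiD- cells (60.7%, 40.6% to 78.5%). Among cells with a count, the median was 17.5 CPM in DiD+ against 12.3 CPM in DiD- cells. The summed level was 19.98 CPM (exact Poisson interval 19.3 to 20.7) against 8.32 CPM (7.81 to 8.85), for a log2 ratio of 1.17. Reads carry no molecular identifiers, and the binomial and Poisson intervals, all at 95%, like the limits where no count was found, cover counting error only, not the spread between cells or mice. The ratio stayed between 1.04 and 1.40 when any 1 cell was left out, was 1.06 and 1.32 in the label runs, and was 1.37 without the macrophage wells. Nr2f1 shares 123 exon bases with A830082K12Rik on the opposite strand, which had 1580 counts in DiD+ and 781 in DiD- cells. Strand handling is not stated, so reads in these bases cannot be told apart.

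Nr2f2 (ENSMUSG00000030551, chromosome 7, 70351944 to 70366735, minus strand), the closest relative of Nr2f1, was at a similar or lower summed level in DiD+ cells. Its lowest, median and highest levels per cell were 0, 7.75 and 148 CPM in DiD+ cells and 0, 12.8 and 108 CPM in DiD- cells. The groups overlapped over nearly all of their range. It had a count in 28 of 32 DiD+ (87.5%) and 23 of 28 DiD- cells (82.1%), with summed levels of 18.5 and 22.3 CPM and a log2 ratio of -0.25. Cell 30, a macrophage well with no transgene count, held 26.96% of the DiD+ counts, and without it the ratio was -0.63. Without DiD- cell 66 the ratio was 0.04, and without all macrophage wells -0.56. In the label runs it was -0.07 (17 to 46) and -0.69 (63 to 92). Of its sequence, 7.35% of 50-base words also occur in other genes.

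The order of the 2 receptors differed between the groups. Per kilobase of exon, Nr2f1 was the higher of the pair in 20 of 32 DiD+ cells and Nr2f2 in 12. In DiD- cells Nr2f1 was higher in 8, Nr2f2 in 17, and both were at 0 in 3. The ratio of Nr2f1 to Nr2f2, from summed counts per kilobase, was 1.83 in DiD+ and 0.632 in DiD- cells. Over the 60 cells the levels of the 2 genes had a Spearman rho of -0.11.

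Bhlhe40 (ENSMUSG00000030103, chromosome 6, 108660629 to 108666925, plus strand) had the highest summed count of the 8. Its lowest, median and highest levels per cell were 0, 178 and 5674 CPM in DiD+ cells and 0.378, 190 and 1117 CPM in DiD- cells. Over all cells the medians were close, and the highest levels were in DiD+ cells. Within the label runs the medians differed, at 264 CPM (DiD+) against 97.0 CPM (DiD-) in the run 17 to 46. In the run 63 to 92 they were 129 against 278 CPM. The summed level was 522 CPM (518 to 525) in DiD+ against 289 CPM (286 to 292) in DiD- cells. The log2 ratio was 0.85, while the cell medians over both runs together went the other way. DiD+ cell 29 alone held 22331 of the 76185 DiD+ counts (29.3%), and without it the ratio was 0.39. The ratio was 2.0 among cells with label numbers 17 to 46 (691 against 172 CPM) and -0.46 among those with label numbers 63 to 92 (280 against 386 CPM). The direction of Bhlhe40 thus differed between the runs, and no single direction can be given. It had a count in 29 of 32 DiD+ and all 28 DiD- cells.

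Bhlhe41 (ENSMUSG00000030256, chromosome 6, 145858243 to 145865558, minus strand) was far lower than Bhlhe40 and was found mainly in DiD+ cells. Its lowest, median and highest levels per cell were 0, 0.202 and 32.0 CPM in DiD+ cells and 0, 0 and 8.72 CPM in DiD- cells. A count was present in 17 of 32 DiD+ cells (53.1%, interval 34.7% to 70.9%) and 8 of 28 DiD- cells (28.6%, 13.2% to 48.7%). Many of these counts were low, and 10 counts or more were reached in 12 DiD+ and 3 DiD- cells. The group sums were 607 and 96 counts, or 4.16 CPM (3.83 to 4.50) and 0.803 CPM (0.651 to 0.981), and gave a log2 ratio of 1.52. DiD- cell 26 held 43.8% of the DiD- counts, and without it the ratio was 1.81. In the label runs the ratio was 0.79 (17 to 46) and 2.17 (63 to 92). In the run 63 to 92, Bhlhe41 had a count in 11 of 14 DiD+ cells and 5 of 16 DiD- cells, and in the run 17 to 46 in 6 of 18 and 3 of 12. Per kilobase, Bhlhe40 exceeded Bhlhe41 by 179 times in DiD+ and 514 times in DiD- cells. Bhlhe41 shares 1280 exon bases with Gm43909 on the opposite strand, which had 29 counts in DiD+ and 2 in DiD- cells.

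The upstream sequence of Bhlhe41 is shown because it holds the letters CACGTG, the E-box that clock factors, the DEC proteins included, are known to bind. It covers the 112 bases, chr6:145865559-145865670 on the minus strand (GRCm38.p6, RefSeq promoter table), that lie before the RefSeq start and outside the annotated exons, with the E-box in capitals.
Bhlhe41: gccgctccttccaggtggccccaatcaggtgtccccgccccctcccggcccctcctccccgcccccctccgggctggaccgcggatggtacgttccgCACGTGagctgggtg
The E-box begins 153 bases before the RefSeq start. It was found in 7.15% of the 32851 promoters of 300 bases (250 before to 50 after a start) in the same table. Of the 8 factors, 6 had a promoter there (not Bhlhe40 and Sox9). Both strands were also searched for GTAAACA (the forkhead site, in 3.65% of promoters), AGGTCA (a nuclear receptor half-site, 16.3%) and ACAAT (the SOX core, 31.02%). GTAAACA occurred 148 bases before the second of 2 Nr2f1 starts, inside an annotated exon, and no other match was found in the promoters of the 6 factors. A match is a description of letters and not of binding.

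Sox9 (ENSMUSG00000000567, chromosome 11, 112782224 to 112787760, plus strand) was present in every cell, 32 of 32 DiD+ and 28 of 28 DiD-, at a similar summed level. Its lowest, median and highest levels per cell were 0.271, 163 and 1192 CPM in DiD+ cells and 17.9, 253 and 721 CPM in DiD- cells. The DiD+ cells spread wider in both directions. The summed levels were 255 CPM (252 to 257) and 272 CPM (269 to 275), which gave a log2 ratio of -0.10. This sign was not stable, at 0.31 and -0.63 in the label runs and 0.06 without the macrophage wells. DiD+ cells 21 and 68, with 2 counts and 1 count of Sox9, were the cells at the low end, and both also lacked Bhlhe40. Cell 21 is a macrophage well, and cell 68 had the fewest genes detected of all cells (6024). DiD+ cell 18 also lacked Bhlhe40 but had 316 counts of Sox9.

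Glis1 (ENSMUSG00000034762, chromosome 4, 107434591 to 107635061, plus strand) had counts in DiD+ cells only. It had 636 counts in 9 of 32 DiD+ cells (28.1%, interval 13.7% to 46.7%) and 0 counts in 28 DiD- cells (upper limit of the exact interval 12.3%). The counts were 169 in cell 17, 147 in cell 25, 126 in cell 22, 70 in cell 81, 69 in cell 75, 44 in cell 41, 6 in cell 87, 4 in cell 82 and 1 in cell 31. The 3 highest cells held 69.5% of the counts, and 23 DiD+ cells had none. At 4.35 CPM (4.02 to 4.71) against a limit of 0.0251 CPM, the summed level was at least 173-fold higher in DiD+ cells, taking 3 counts over the group for the 0 in DiD- cells. Both label runs contributed, with 5 of 18 and 4 of 14 DiD+ cells. None of the 9 cells was a macrophage well, and Glis1 was at 0 in all 6 of those. Such a pattern was not particular to Glis1. Of the genes that reached 1 CPM in either group, 82 (0.66%) had no DiD- count and at least as many DiD+ counts. Of these, 3 were found in at least as many DiD+ cells. Over the 32 DiD+ cells the level of Glis1 had a Spearman rho of 0.50 with the number of genes detected.

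The upstream sequence of Glis1, the factor without a DiD- count, is given for reference. It covers 122 bases, chr4:107434469-107434590 on the plus strand (GRCm38.p6, RefSeq promoter table), outside the annotated exons, and holds none of the motifs searched.
Glis1: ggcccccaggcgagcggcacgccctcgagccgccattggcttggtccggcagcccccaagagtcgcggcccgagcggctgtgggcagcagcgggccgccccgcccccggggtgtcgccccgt
Its 300-base promoter was 81.3% G and C, against a median of 52.7% over all promoters of the table.

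Foxo1 (ENSMUSG00000044167, chromosome 3, 52268336 to 52353221, plus strand) was detected in a larger share of DiD+ cells, and few cells lay between 0 and 10 counts. Its lowest, median and highest levels per cell were 0, 5.63 and 60.7 CPM in DiD+ cells and 0, 0 and 28.9 CPM in DiD- cells. A count was present in 18 of 32 DiD+ cells (56.2%, interval 37.7% to 73.6%) and 9 of 28 DiD- cells (32.1%, 15.9% to 52.4%). All 9 of these DiD- cells and 16 of the 18 DiD+ cells had at least 10 counts. Among cells with a count the median was 26.1 CPM in DiD+ against 17.6 CPM in DiD- cells. The summed level was 16.01 CPM (15.4 to 16.7) against 6.18 CPM (5.75 to 6.65), for a log2 ratio of 1.24. It was 1.25 and 1.22 in the label runs and 1.41 without the macrophage wells, and no omission of 1 cell took it below 1.14 or above 1.42. Only 1 of the 6 DiD+ macrophage wells had a Foxo1 count. Foxo1 shares 674 exon bases with Gm20402 on the opposite strand (40 and 15 counts), and its estimated count was not a whole number in 11 cells.

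Foxo3 (ENSMUSG00000048756, chromosome 10, 42181841 to 42276755, minus strand) was found in more DiD+ cells without a higher summed level. Its lowest, median and highest levels per cell were 0, 9.18 and 75.3 CPM in DiD+ cells and 0, 9.35 and 86.3 CPM in DiD- cells. The group medians were nearly equal. A count was present in 27 of 32 DiD+ cells (84.4%, interval 67.2% to 94.7%) and 15 of 28 DiD- cells (53.6%, 33.9% to 72.5%), but 10 counts or more were reached in 22 DiD+ (68.8%) and the same 15 DiD- cells. Cells with a count had a median of 11.7 CPM in DiD+ against 24.2 CPM in DiD- cells. The summed levels were 15.6 and 14.3 CPM, a log2 ratio of 0.12 that was -0.54 under spike-in scaling. The 6 macrophage wells held 26.6% of the DiD+ counts, and without macrophage wells the ratio was 0.01. Per kilobase, the ratio of Foxo1 to Foxo3 was 0.894 in DiD+ and 0.378 in DiD- cells.

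**Figure D2:**
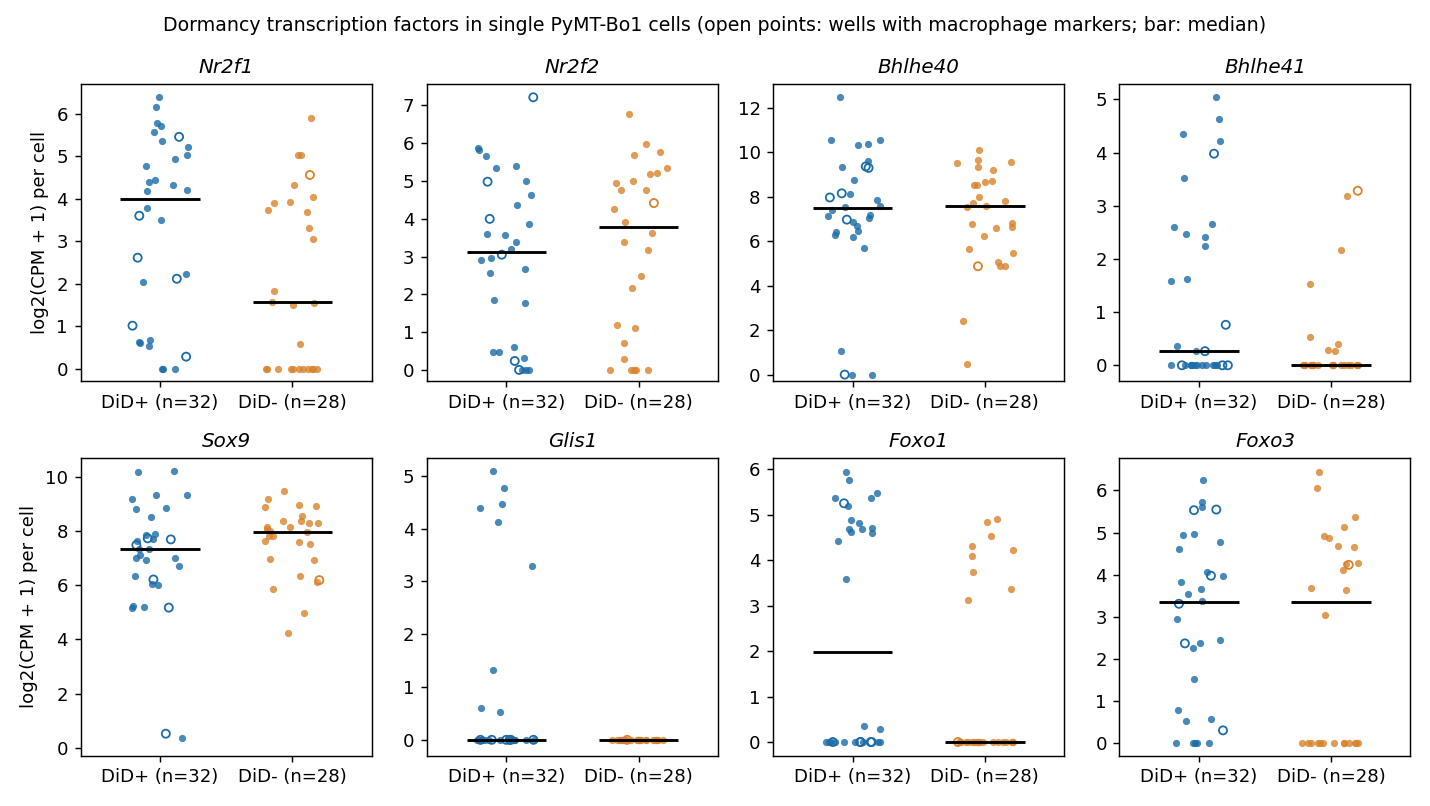
Level of each factor in each cell, as log2(CPM + 1) (y axis, scaled for each gene), for 32 DiD+ and 28 DiD- cells, with black bars at the median and open points for wells with macrophage markers. Nr2f1 has medians of 14.96 and 1.94 CPM, Foxo1 and Bhlhe41 have more cells above 0 among DiD+ cells, and Glis1 is above 0 in 9 DiD+ cells. For Bhlhe40 and Sox9 the groups overlap, and both the highest and the lowest cells are DiD+ cells.

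Ordered by summed counts per kilobase of exon as RPKM (CPM divided by exon length in kilobases), Bhlhe40 (111) and Sox9 (61.6) stood far above the other factors in DiD+ cells. They were followed by Nr2f1 (3.92), Nr2f2 (2.15), Foxo3 (2.07), Foxo1 (1.85), Glis1 (1.19) and Bhlhe41 (0.618). In DiD- cells the order was Sox9 (65.8), Bhlhe40 (61.4), Nr2f2 (2.58), Foxo3 (1.89), Nr2f1 (1.63), Foxo1 (0.714), Bhlhe41 (0.120) and Glis1 (0). Nr2f1 was thus the third of the 8 in DiD+ and the fifth in DiD- cells. The ranges over cells of neighbors in either order overlapped. With the length of the longest transcript in place of all exons, Bhlhe40 came before Sox9 and Nr2f1 before Foxo3 in DiD- cells.

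On average, a DiD+ cell held more of the 8 factors than a DiD- cell. The lowest, median and highest numbers with a count were 3, 6 and 8 in DiD+ cells and 3, 5 and 7 in DiD- cells. The mean was 5.91 ± 1.33 (SD over 32 cells) in DiD+ and 4.57 ± 1.10 (SD over 28 cells) in DiD- cells, where cells are not replicates of a group. At least 6 factors were found in 22 of 32 DiD+ and 4 of 28 DiD- cells, or in 12 and 3 cells with a minimum of 10 counts. All 8 were found in DiD+ cells 41, 81 and 87, and at 10 counts in cell 81 alone. Glis1 had no DiD- count, so it added to DiD+ cells only and no DiD- cell could hold all 8. Genes detected per cell had medians of 8283 in DiD+ and 8424.5 in DiD- cells. After each cell was thinned to 2200000 counts the means were 5.75 and 4.50, with a minimum of 10 counts they were 4.97 and 4.07, and without macrophage wells 6.04 and 4.52. The Spearman rho between the number of factors and the number of genes detected was 0.47 over the 32 DiD+ and 0.11 over the 28 DiD- cells.

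**Figure D3:**
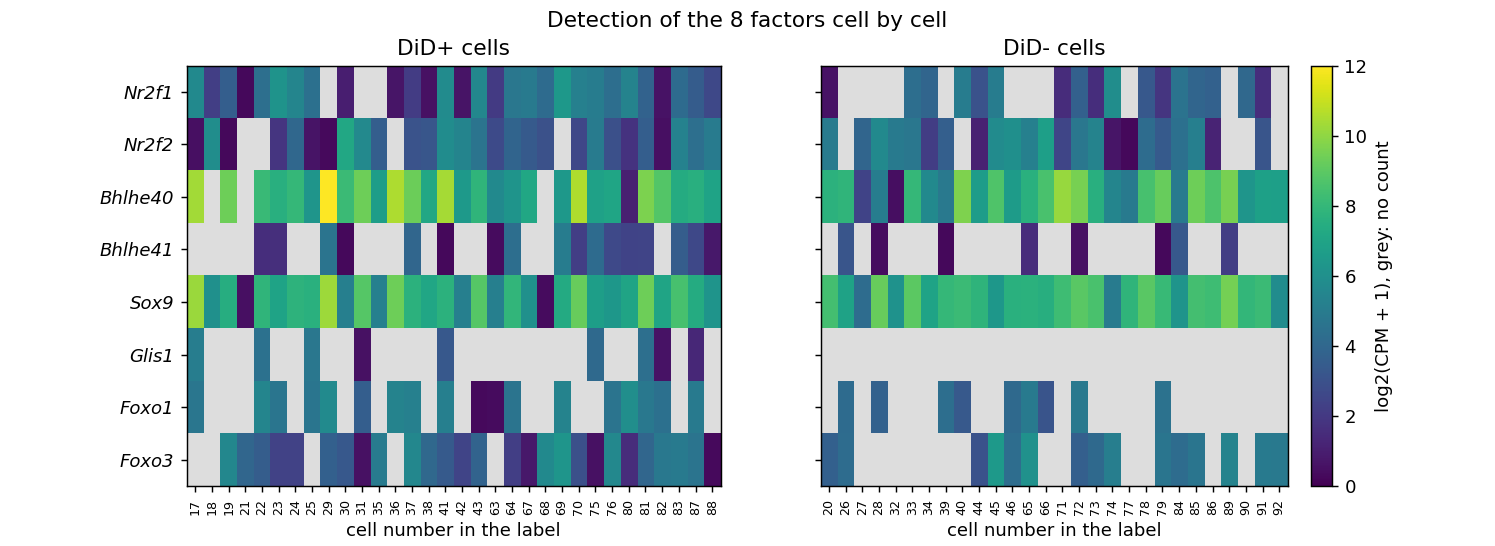
Level of the 8 factors (rows) in each cell (columns, by label number), as log2(CPM + 1), with grey where a cell had no count. Sox9 is present in all 60 cells, Glis1 is grey in all 28 DiD- cells, and Foxo1 and Bhlhe41 have more grey among DiD- cells.

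Of the 28 pairs of factors, most were found together about as often as the product of their shares of cells gives. Part of this was fixed in advance. Sox9 had a count in all 60 cells, so its pairs met exactly as often as the product. Bhlhe40, with a count in 57 of 60 cells, left its pairs little room to depart. Over all 60 cells and with a minimum of 1 count, Bhlhe41 and Foxo1 departed most. Both had a count in 18 of 60 cells, where the product gave 11.25, and their levels had a Spearman rho of 0.51. The pair met in 12 DiD+ cells against 9.56 from the product, and in 6 DiD- cells against 2.57. With a minimum of 10 counts the numbers were 9 against 6 in DiD+ and 1 against 0.964 in DiD- cells. In the label runs the pair met in 8 cells against 4.5 and in 10 against 6.4. Bhlhe41 and Foxo3 met in 22 cells against 17.5. Glis1 and Foxo1 met in 8 of the 9 Glis1 cells, against 5.06 from the shares within DiD+ cells. There, with a minimum of 1 count, this pair departed more (2.94 cells) than Bhlhe41 and Foxo1 (2.44). At a minimum of 10 counts the order was the reverse, with Glis1 and Foxo1 in 5 DiD+ cells against 3. With a minimum of 10 counts over all cells, Bhlhe41 met Foxo1 in 10 cells against 6.25 and Foxo3 in 13 against 9.25, the same difference. The 2 FOXO genes themselves met in 19 cells against 18.9, and Nr2f1 and Foxo1 in 19 against 20.7. These counts describe cells that share groups and libraries, and no test was made.

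**Figure D4:**
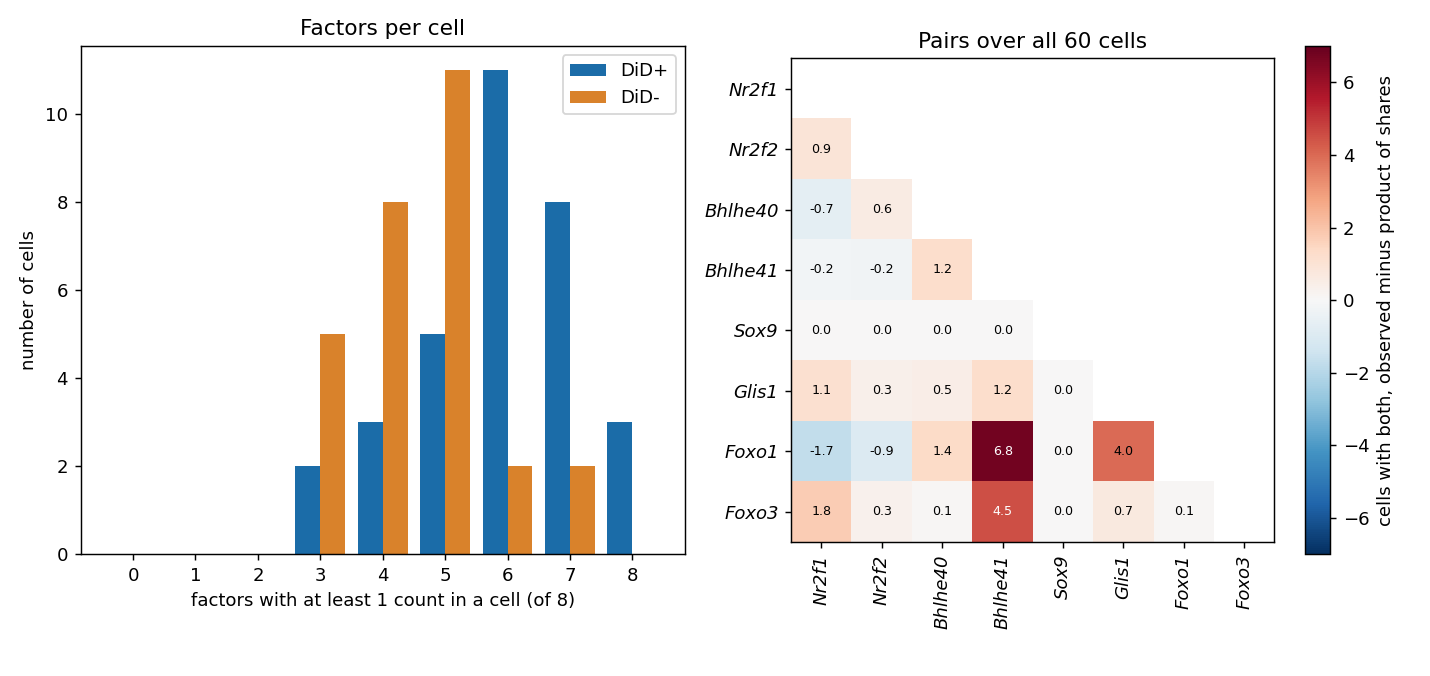
Left, number of cells (y axis) by how many of the 8 factors had a count (x axis) in DiD+ and DiD- cells. Right, for each pair, the number of cells with both minus the number that the product of the 2 shares gives, over 60 cells. DiD+ cells peak at 6 factors and DiD- cells at 5, and the pair Bhlhe41 and Foxo1 stands 6.75 cells above the product.

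Across cells, Bhlhe40 and Sox9 had the highest coefficient of the 28 pairs, a Spearman rho of 0.62 over 60 cells. The coefficient was 0.72 within DiD+ and 0.52 within DiD- cells, and 0.55 and 0.71 within the label runs. Among 8379 genes compared with each factor, those most like Bhlhe40 were Junb (0.64) and Ier3 (0.62), both immediate early genes, and then Sox9. The genes most like Sox9 were Bag3 (0.68), Dnaja1 (0.65) and Dnajb1 (0.63), a co-chaperone and 2 heat shock proteins of the DNAJ family. Those most like Foxo1 were Arrdc3 (0.56), Zfand5 (0.54) and Sertad1 (0.53), and for Sertad1 the coefficient was 0.75 in the first label run and 0.24 in the second. Bhlhe41 was most like Foxo1 (0.51), Itgb1bp1 (0.49) and Lgals7 (0.49). Nr2f1 was most like F11r (0.52), Rsf1 (0.50) and Per1 (0.48), of which Per1 encodes a core clock repressor. Within groups, F11r was at 0.66 in DiD+ and 0.13 in DiD- cells, and Itgb1bp1, listed for Bhlhe41, at 0.70 and 0.11. Nr2f2 was most like Herc4 (0.52), Nipa1 (0.48) and Xpnpep1 (0.47), and Foxo3 most like Gstm1 (0.48), Ndufa3 (0.47) and Cst3 (0.47). Each of these is the highest of 8379 or 8380 coefficients over the same 60 cells, which share depth and group. Glis1, with counts in fewer than 15 cells, was not compared.

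With the summed level of G2/M genes per cell, Bhlhe40 had a Spearman rho of -0.41 over the 32 DiD+ and -0.37 over the 28 DiD- cells, and Foxo3 one of -0.35 and -0.28. For Nr2f1 the coefficients were -0.22 and -0.10, for Foxo1 -0.04 and 0.23, and for Bhlhe41 -0.16 and 0.08. Foxo3 had a rho of -0.45 over DiD+ and -0.26 over DiD- cells with the mouse counts per spike-in count, and of 0.34 and -0.33, opposite in sign, with the summed macrophage markers. These coefficients are weak in sparse counts and are given as descriptions.

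Lists of related genes were set beside the factors. Of 11 family relatives, 6 reached 1 CPM in either group, with 3 higher and 3 lower in DiD+ cells and a median log2 ratio of 0.36. This median was not stable, at 0.06 with per-cell means, -0.07 under spike-in scaling, -0.03 in the label run 63 to 92 and 0.02 without DiD+ cell 82. The highest, and the only 2 past 2-fold, were Hey1 (223 counts in 2 DiD+ cells, 0 in DiD- cells) and Foxo4 (188 counts in 3 DiD+ cells, 1 in DiD- cells), both resting on very few cells. These 2 reached 1 CPM only through the DiD+ cells and could count only as higher, and none of the 4 relatives with 1 CPM in both groups was past 2-fold. The lowest were Nr2f6 (-0.07) and Glis2 (-0.05), relatives of Nr2f1 and Glis1 at nearly the same level in both groups.

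The dormancy circuit list holds TGF-beta and retinoic acid receptors, p38, cell cycle inhibitors and Nanog. Of its 13 genes 10 were measured, 6 higher and 4 lower, with a median of 0.21 (0.07 without DiD+ cell 37) and none past 2-fold. Without the macrophage wells 2 were past 2-fold, Cdkn1a (1.15) and Rarb (1.07, from 148 and 12 counts in 2 cells of each group). Rarb reached 1 CPM only through the DiD+ cells and could count only as higher. Over all wells its ratio of 0.87 was 0.12 without DiD+ cell 41. Cdkn1a, which encodes the inhibitor p21, had a level of 688 CPM in DiD+ against 364 CPM in DiD- cells (log2 ratio 0.91), with a count in all 60 cells. Tgfbr1, a TGF-beta receptor, had a ratio of 0.89. Rara, a retinoic acid receptor, had a ratio of -0.44, and Cdkn1b, which encodes p27, one of -0.23. The sign of Cdkn1b turned to 0.22 without DiD- cell 74, and 41.01% of its DiD+ counts lay in macrophage wells, without which it was at -0.54. Tgfb2 had 48 counts in 4 DiD+ cells and none in DiD- cells, below the 1 CPM minimum, and Nanog had none in either group.

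Of 16 circadian clock genes 13 were measured, 11 higher and 2 lower, with a median of 0.39. Under spike-in scaling, where the median of all genes was -0.34, 7 were higher and 6 lower, with a median of 0.12. At 2-fold or more, 1 was higher and 1 lower, beside 12.1% and 4.86% of all genes. Cry2, a clock repressor, was the highest at 1.25 (8.80 against 3.10 CPM), and Dbp, a clock output factor, followed at 0.88 (0.55 without DiD+ cell 30). Arntl, which encodes the activator BMAL1, was the lowest at -1.25 (12.4 against 30.8 CPM), and Nr1d1 had a ratio of -0.12 that turned to 0.11 without the macrophage wells and to 0.25 without DiD- cell 28. The ratio of Cry2 was 0.63 without DiD+ cell 38, and leaving out DiD- cell 40 gave 2.303.

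Of 22 FOXO targets 19 were measured, 12 higher and 7 lower, and 6 were higher by 2-fold or more and 1 lower, beside 12.1% and 4.86% of all genes. Under spike-in scaling 8 were higher and 11 lower, with 3 and 1 past 2-fold. Their median was 0.24 (0.07 without DiD+ cell 23), and it went below 0 under spike-in scaling (-0.12) and in the label run 63 to 92 (-0.28, against 0.79 in the run 17 to 46). Bcl2l11, which encodes the pro-apoptotic protein BIM, had the highest ratio at 2.88 (21.9 against 2.10 CPM) and a count in 23 DiD+ and 8 DiD- cells. Sesn1, a stress-induced sestrin, was at 211 against 64.96 CPM (1.68). Fbxo32, which encodes atrogin-1, had the lowest ratio at -1.40 (5.72 against 16.8 CPM), though more DiD+ cells (14) than DiD- cells (8) had a count. Bcl6, with 89 and 164 counts in 4 and 5 cells, was at -0.56 and turned to 0.31 without DiD- cell 85.

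Of the 9 SOX9 partners and cartilage targets, only Sox5 was measured at 1 CPM or more (309 counts in 4 DiD+ cells and 1 count in DiD- cells). Col2a1 and Acan, the cartilage genes that SOX9 is best known to drive, had no count in any cell, although Sox9 itself had a count in every cell.

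**Figure D5:**
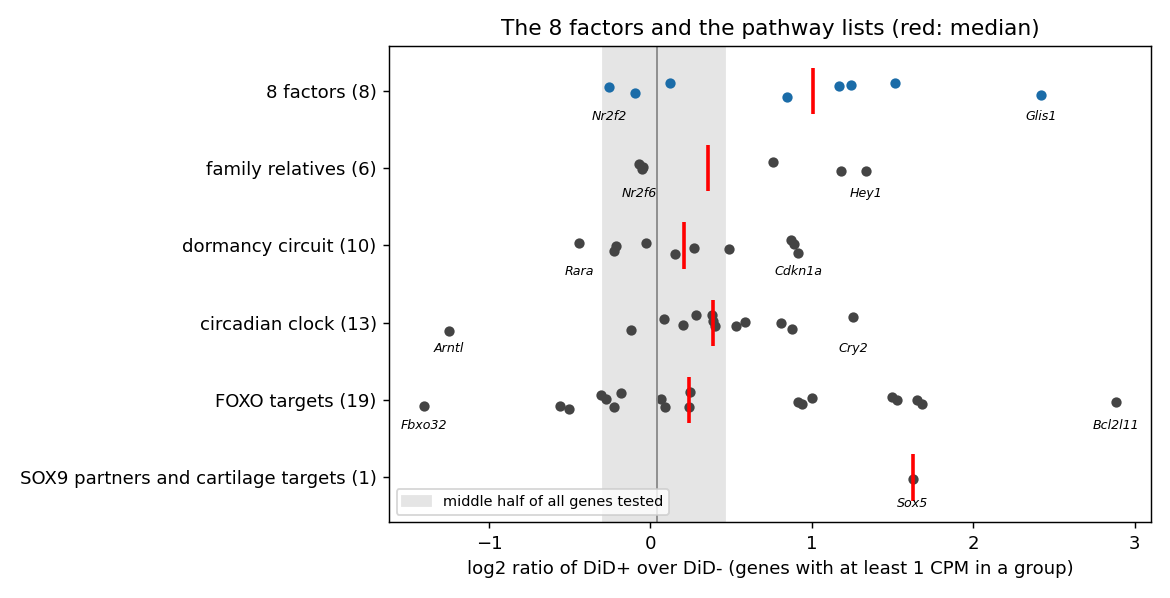
Log2 ratio of DiD+ over DiD- (x axis) for the 8 factors and the genes of each list that reached 1 CPM (number in brackets), with red bars at the median and a grey band between the quartiles of all 12432 genes. The 8 factors have a median of 1.01, and the lists with more than 1 gene have medians between 0.21 and 0.39.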

How the data were processed

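Per the labels and the study's methods, reads were aligned with STAR to GRCm38/mm10 with ERCC and transgene sequences added, and the deposited table holds estimated counts from RSEM, not normalized. The authors also deposited a signal table normalized with BASiCS, used here as another scaling. Aligner versions are not given in the sources used here. All 60 columns were matched to cells by label.

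Estimated counts (96.6% whole) were rounded, and library totals hold mouse genes alone, not spike-ins or transgenes. Counts were summed per group, scaled to CPM, and compared as log2 ratios with a pseudocount of 1 CPM. Called means 2-fold or more among genes that reach 1 CPM in either group. Intervals are exact Poisson and Clopper-Pearson (95%). Cell numbers are those in the labels. No well was left out as a doublet in the values first given. Positions and exon lengths are from GENCODE (GRCm38), promoters from RefSeq. Named genes are the 8 factors, the 2 highest and 2 lowest of each list, and the 3 genes with the highest Spearman rho per factor (among genes reaching 10 CPM and found in 20 cells). Genes outside this rule (Rarb, Krt8, Krt18, Krt19, Epcam, Cdh1, Tgfb2, Nanog, Col2a1, Acan and overlapping genes) were named after their values were seen. Factors and lists were chosen with earlier results of these data known.

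Python 3.11.15, numpy 2.4.6, pandas 2.3.3, scipy 1.17.1, matplotlib 3.10.9 and R 4.3.3 were used, and edgeR 4.0.16 and DESeq2 1.42.0 gave alternative scaling factors. The log2 ratio with its Poisson interval, the thinning and the rank correlation were tested on simulated data.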

Additional observations from a re-analysis of the deposited data

How the results depend on the processing

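The median log2 ratio of the 8 factors, 1.01, was 0.67 under spike-in scaling, 0.46 with a pseudocount of 10 CPM, 1.16 without macrophage wells, 0.93 and 0.71 in the label runs 17 to 46 and 63 to 92, and 1.16 without wells holding markers of any host cell type (chosen after seeing the data). With each cell left out in turn it ranged from 0.77 (without DiD+ cell 29) to 1.10. The number of factors at a log2 ratio of 1 or more, 4, was 2 under spike-in scaling, 0 with a pseudocount of 10 CPM and 2 with a minimum of 10 CPM. The larger pseudocount shrinks the ratio of genes near its level by construction, and the higher minimum leaves out Bhlhe41 and Glis1. It was 4 under per-cell means, BASiCS values, TMM and DESeq2 scaling, a pseudocount of 0.1 CPM, in each label run, and without the macrophage or host wells. In the run 17 to 46 the 4 factors included Bhlhe40 and not Bhlhe41 (0.79). The ratios of Nr2f1, Bhlhe41, Glis1 and Foxo1 stayed above 0 under every alternative, and those of Bhlhe40, Sox9, Foxo3 and Nr2f2 took both signs. The numbers of list genes higher, lower and past 2-fold under spike-in scaling or without macrophage wells were added after seeing the data. The SOX9 list gave no value in the run 63 to 92, since none of its genes reached 1 CPM there. No paired analysis was possible because the labels give each cell its own number. Factors below about 1 CPM per cell rest on few counts, so a 0 in a single cell is a lack of detection at this depth.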
